A study of Mus musculus with 2 samples.

Results

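The genes described here are 37 mouse genes of protein folding and translocation in the endoplasmic reticulum (ER), chosen by name and followed across the cells of the E14.5 pancreas. All 37 were found among the 25507 gene symbols of the count tables. They comprise 11 chaperones and co-chaperones, 5 foldases, 7 subunits of the translocon and its associated complex, 3 signal peptidase subunits, 5 genes of ER-associated degradation, and 6 stress sensors and transcription factors. Levels come from single-cell RNA sequencing of 2 libraries of wild-type pancreatic cells, which the labels call islet cells. Per the labels' protocols the cells were enriched by flow sorting for low and high Ngn3eGFP, a reporter of the endocrine progenitor gene Neurog3, and then captured in droplets on the inDrop platform. Each captured RNA molecule carries a unique molecular identifier (UMI). The tables do not tie a cell to either gate, and no label tells whether separate animals gave the libraries. Every p-value below thus only sets a group difference against variation between these 2 samples, pooled over the groups and partly shared across genes. That variation may be technical.

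Proteins that a cell secretes enter the ER through the Sec61 channel while they are being made, lose their signal peptide to signal peptidase, and are folded by chaperones, disulfide isomerases and a proline isomerase. Chains that do not fold are carried back to the cytosol and degraded. Atf6, Ern1 (also called Ire1) and Eif2ak3 (also called Perk) encode ER membrane proteins that sense unfolded chains and signal through transcription factors such as Xbp1 and Atf4. Insulin is made as a precursor with disulfide bonds, and beta cells are known for a high load on this pathway, as are the enzyme-producing acinar cells.

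Cells were grouped by raw UMIs of marker genes. Ins cells had at least 20 UMIs of Ins1 and Ins2 together, Gcg cells at least 5 of Gcg (glucagon), Chgb cells at least 3 of Chgb (a granule protein of endocrine cells), Neurog3 cells at least 3 of Neurog3, Cpa1 cells at least 5 of Cpa1 (an acinar and tip enzyme), Spp1 cells at least 3 of Spp1 (a trunk and duct gene) and Csf1r cells at least 2 of Csf1r (a macrophage receptor). Cells that also reached another group's threshold were left out, with some exceptions. Ins and Gcg cells could carry Chgb, Neurog3 or Spp1, and Neurog3, Chgb, Cpa1 and Csf1r cells could carry Spp1. In libraries 1 and 2 this gave 39 and 99 Ins cells, 29 and 56 Gcg cells, 95 and 150 Chgb cells, 113 and 180 Neurog3 cells, 9 and 83 Cpa1 cells, 106 and 211 Spp1 cells, and 7 and 35 Csf1r cells. Another 373 of the 1585 cells kept were left without a group. Cells of the different groups had median depths of 2675 to 6209 UMIs, and Ins cells, with medians of 4467 and 3522, were deeper than Chgb cells, with 3288 and 2972.5. UMIs were summed per group and library, so that 2 sums stand for each group. Pairs of values below are for libraries 1 and 2, in CPM (the count of a gene scaled to the same total in every sum) unless another unit is named.

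With the grouping genes left out, marker lists of the cell types were summed in each group. The beta cell list summed to 5067 and 7258 CPM in Ins cells, against 1567 and 2323 CPM in Chgb cells. The acinar list summed to 6065 and 9854 CPM in Cpa1 cells and to at most 174 CPM in any sum of the other groups. The alpha list summed to 6198 and 6141 CPM in Gcg cells, the progenitor list to 4110 and 4656 CPM in Neurog3 cells, the duct list to 1312 and 1590 CPM in Spp1 cells and the immune list to 3540 and 2567 CPM in Csf1r cells, in each case above every other group. The precursor list was highest in Chgb cells, at 2954 and 3923 CPM, and Gcg cells held 2025 and 2596 CPM of it. The list of Ghrl, Ppy and Pyy, hormones of other islet cells, summed to 9454 and 9534 CPM in Gcg cells. That is above their alpha list, and in Chgb cells it summed to 1775 and 2996 CPM. The beta cell list summed to 1309 and 3375 CPM in Gcg cells. In Chgb cells the delta cell list (Sst and Hhex) summed to 241 and 2923 CPM, unevenly between the libraries. The Gcg and Chgb groups thus held markers of further hormone cells. Csf1r cells, which should make no insulin, held 159 and 27.2 CPM of Ins1, which is 3 UMIs in each library, and hormone transcripts together made up 0.0634% and 0.0227% of their UMIs. The libraries shared 3 cell barcodes.

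The 37 genes together took a larger share of the transcripts in Ins cells than in any other group. They made up 1.91% (exact 95% interval 1.84 to 1.97) and 2.10% (2.05 to 2.14) of all UMIs in Ins cells. Gcg cells had 0.805% (0.754 to 0.858) and 0.863% (0.819 to 0.909), and Chgb cells 0.843% (0.812 to 0.875) and 0.862% (0.835 to 0.889). The share of Gcg cells thus lay within the intervals of Chgb cells in library 2 and just under them in library 1, while that of Ins cells lay above both groups in both libraries. Neurog3 cells had 0.632% and 0.675%, Cpa1 cells 1.10% and 1.43%, Spp1 cells 0.571% and 0.645%, and Csf1r cells 0.782% and 0.877%. Cpa1 cells came second in both libraries, and Spp1 cells were lowest in both. With hormone transcripts left out of the total, the share in Ins cells was 1.99% and 2.21%. The intervals cover counting error only.

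**Figure D1:**
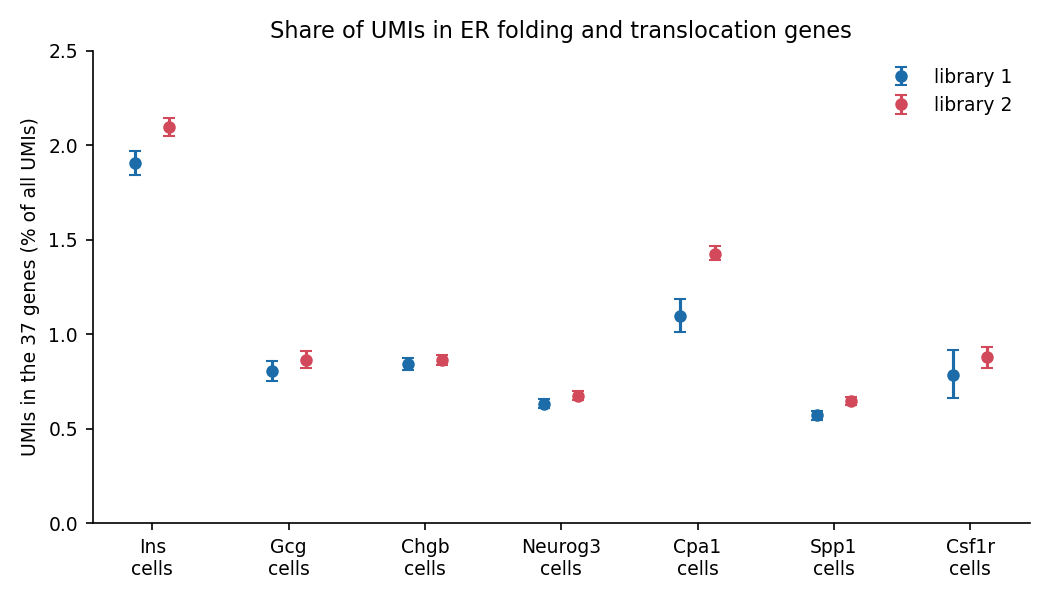
Share of all UMIs (%, linear axis) that fell in the 37 ER genes, per cell group and library, with exact 95% intervals for counting error. Ins cells stand at 1.91% and 2.10%, Cpa1 cells at 1.10% and 1.43%, and every other group lies below 1%.

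Chaperones made the largest part of this share and differed most between the groups. They took 0.984% and 1.10% of UMIs in Ins cells, 0.319% and 0.363% in Gcg cells, 0.375% and 0.340% in Chgb cells, 0.241% and 0.263% in Neurog3 cells and 0.207% and 0.281% in Spp1 cells. The 6 sensors and factors were at 0.0637% and 0.0476% in Ins cells, 0.0402% and 0.0529% in Gcg cells and 0.0409% and 0.0465% in Chgb cells. Among the 5 groups with enough cells in both libraries to be fitted together (Ins, Gcg, Chgb, Neurog3 and Spp1), 26 of the 37 members had both Ins sums above all 8 others, which held for 6.41% of all genes tested. Of the other 11 members, and among these 5 groups, Sel1l and Ppib were highest in Neurog3 cells in both libraries, and Atf6 was highest in Gcg cells in both. Canx, Ssr1, Derl1 and Eif2ak3 were highest in Gcg cells in library 1 and in Ins cells in library 2. Atf4, Ddit3, Ern1 and Edem1 also changed their highest group between the libraries.

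**Figure D2:**
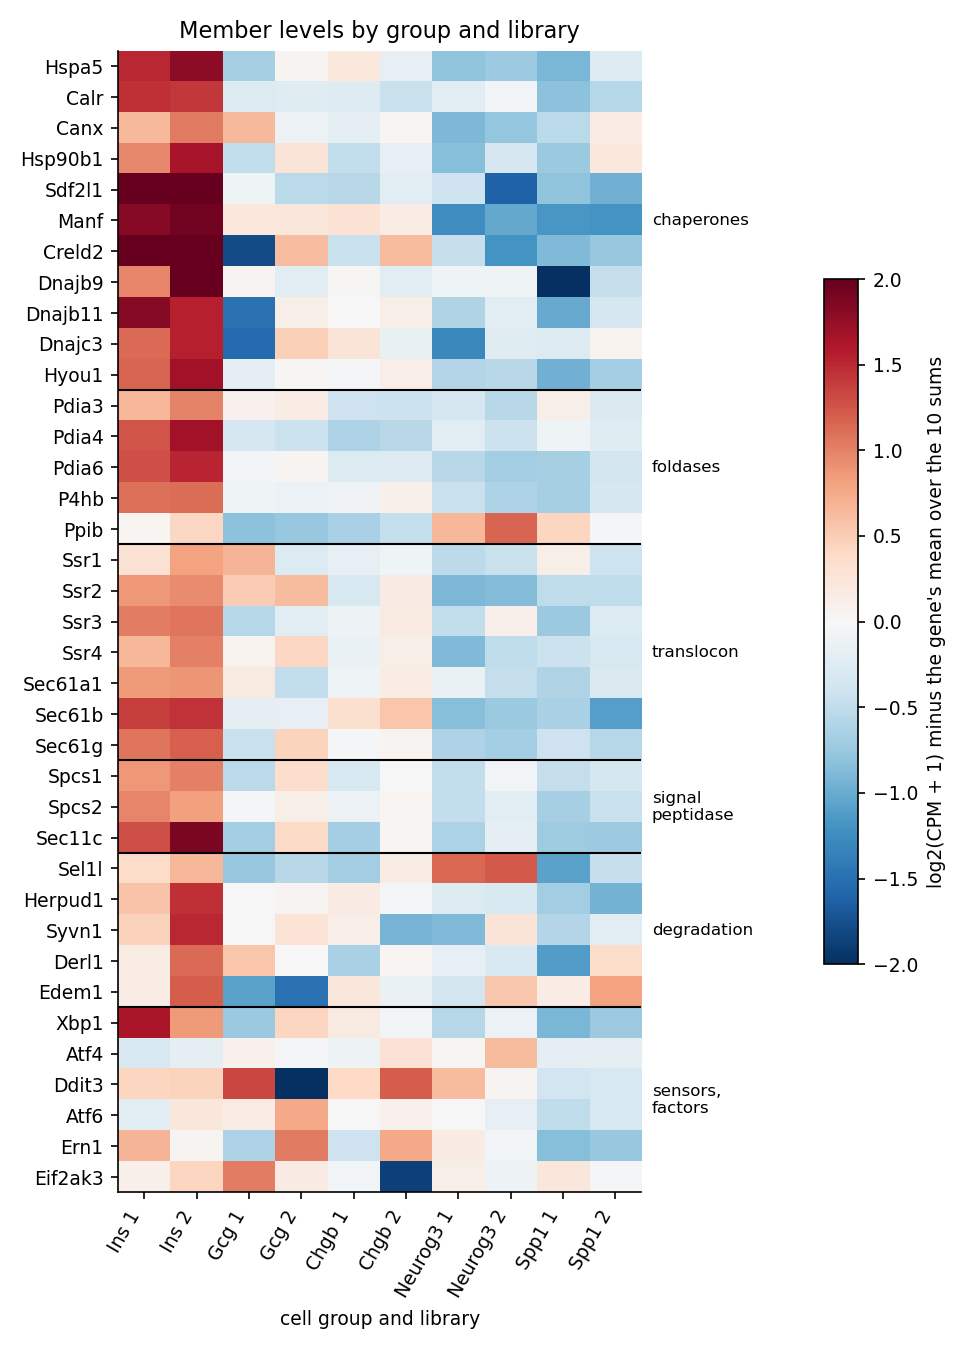
Level of each of the 37 genes (rows, by role) in the 10 sums of 5 cell groups and 2 libraries (columns), as log2(CPM + 1) minus the gene's mean over the 10 sums. The chaperone, foldase, translocon and signal peptidase rows are highest in the Ins columns in both libraries except Ppib, Canx and Ssr1, and the sensor rows show no common pattern.

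Ins cells were set against Chgb cells, the endocrine cells of the same libraries below the insulin and glucagon thresholds. Chgb cells also held transcripts of other hormones, as given above. Of the 37 members 26 rose in Ins cells and 0 fell, whereas 2.83% of the 10654 genes tested were called in either direction and 1.99% were called higher (edgeR quasi-likelihood test, Benjamini-Hochberg adjusted p under 0.05). Over the members the median log2 fold change was 1.09 and over all genes 0.00. All 11 chaperones, 4 of 5 foldases, 6 of 7 translocon genes and all 3 signal peptidase genes rose, but only 1 of 5 degradation genes and 1 of 6 sensors and factors passed the test.

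The chaperones that bind unfolded chains in the ER lumen were among the genes that rose. Calr, calreticulin, which binds glycoproteins as they fold, stood at 3143 and 3033 CPM in Ins cells, against 949 and 838 CPM in Chgb cells, a log2 fold change of 1.79 ± 0.12 (SE, adjusted p = 1.45e-21). Hspa5, the ER chaperone also called BiP, had 2479 and 3006 CPM in Ins cells, against 1009 and 775 CPM in Chgb cells (log2 fold change 1.61 ± 0.14, adjusted p = 1.10e-15). In both genes the 2 Ins sums lay above every Chgb sum. Sdf2l1, a partner of the BiP cycle, showed the largest fold of all 37, with 447 and 436 CPM in Ins cells, against 49.2 and 62.5 CPM in Chgb cells (log2 fold change 2.95 ± 0.30, adjusted p = 7.31e-13). Manf, a small ER protein that binds Hspa5, had 1557 and 1686 CPM in Ins cells, against 535 and 488 CPM in Chgb cells (log2 fold change 1.67 ± 0.15, adjusted p = 5.52e-15). Hsp90b1, the Hsp90 of the ER, had 793 and 1280.5 CPM in Ins cells, against 289 and 363 CPM in Chgb cells (log2 fold change 1.65 ± 0.17, adjusted p = 1.85e-12). None of these groups overlapped. Exons of Hsp90b1, Manf and Pdia4 overlap other genes on the same strand, and those of Pdia3, Pdia6, Dnajb9, Ddit3, Eif2ak3, Ssr2, Sec61a1, Spcs1, Syvn1 and Ppib overlap genes on the opposite strand, so their levels could include reads of those genes.

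The co-chaperones of Hspa5 rose as well. Dnajb11, a J-domain protein that hands chains to Hspa5, had 347 and 289.5 CPM in Ins cells, against 98.3 and 106 CPM in Chgb cells (log2 fold change 1.61 ± 0.28, adjusted p = 3.08e-05). Hyou1, the nucleotide exchange factor of Hspa5, had 329 and 469 CPM in Ins cells, against 145 and 160.4 CPM in Chgb cells (log2 fold change 1.40 ± 0.24, adjusted p = 1.44e-05). Both stood clear of the Chgb sums. Dnajb9, another J-domain protein, had 129 and 331 CPM in Ins cells, against 66.5 and 56.3 CPM in Chgb cells, so that its log2 fold was 0.95 in library 1 and 2.54 in library 2. Its direction was shared and its size was not (joint log2 fold change 1.93 ± 0.34, adjusted p = 3.14e-05). Dnajc3, a J-domain co-chaperone, showed a log2 fold change of 1.30 ± 0.30 (adjusted p = 0.00245), Canx, the membrane-bound relative of calreticulin, one of 0.93 ± 0.20 (adjusted p = 0.00151), and Creld2, an ER protein with disulfide isomerase activity, one of 1.93 ± 0.41 (adjusted p = 0.000794). Creld2 was a low gene outside the Ins cells, with 147 and 143 CPM in Ins cells, against 23.1 and 50.01 CPM in Chgb cells.

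The promoters of these genes were searched for the ER stress response element (ERSE), the sequence bound by Atf6 together with NF-Y, because it is the element known from Hspa5 and its relatives. RefSeq promoter sequences of build GRCm38.p6, from 250 bases before to 50 bases after each start, were matched by symbol for 30 of the 37 members, and Manf, Hyou1, Atf6, Ssr2, Sec61a1, Sec11c and Derl1 were not matched. The letters CCAAT and CCACG with 9 free bases between them, on either strand, were present in 8 of the 30 (26.7%) and in 37 of 27025 genes with a promoter (0.137%). All 8 (Hspa5, Calr, Canx, Hsp90b1, Pdia6, Creld2, Dnajc3 and Syvn1) rose in Ins cells over Chgb cells, as did 13 of the 22 members without the letters. Of the 8, DESeq2 did not call Canx, Creld2, Dnajc3 and Syvn1. Because the element is known from Hspa5 and its relatives, which are members, these shares are not an independent comparison. A match describes the letters and shows no binding. The lines below give the 250 bases before the start of Hspa5 and, for the other 7 genes, the element with up to 20 bases on each side, read 5′ to 3′ on the strand of the gene, with the element in capitals (it reads from CGTGG to ATTGG where it lies on the opposite strand). Hsp90b1 holds 2 elements. The places are chr2:34771840-34772089 (+) for Hspa5, chr8:84847055-84847113 (-) for Calr, chr11:50325780-50325838 (-) for Canx, chr10:86705618-86705676 and chr10:86705513-86705571 (-) for Hsp90b1, chr12:17266471-17266529 (+) for Pdia6, chr15:88819500-88819558 (+) for Creld2, chr14:118937807-118937865 (+) for Dnajc3 and chr19:6046512-6046570 (+) for Syvn1.
Hspa5: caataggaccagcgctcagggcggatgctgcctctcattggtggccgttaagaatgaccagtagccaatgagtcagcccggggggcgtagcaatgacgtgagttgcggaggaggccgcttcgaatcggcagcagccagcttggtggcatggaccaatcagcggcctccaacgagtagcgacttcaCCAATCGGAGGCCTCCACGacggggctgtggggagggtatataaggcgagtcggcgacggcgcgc
Calr: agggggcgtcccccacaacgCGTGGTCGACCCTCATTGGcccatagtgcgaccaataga
Canx: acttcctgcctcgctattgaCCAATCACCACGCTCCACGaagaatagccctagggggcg
Hsp90b1, first element: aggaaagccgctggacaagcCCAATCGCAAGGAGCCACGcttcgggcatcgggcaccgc
Hsp90b1, second element: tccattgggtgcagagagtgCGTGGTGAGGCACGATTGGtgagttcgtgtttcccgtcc
Pdia6: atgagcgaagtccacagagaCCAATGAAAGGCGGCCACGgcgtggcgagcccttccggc
Creld2: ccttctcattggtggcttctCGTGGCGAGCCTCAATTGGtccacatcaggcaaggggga
Dnajc3: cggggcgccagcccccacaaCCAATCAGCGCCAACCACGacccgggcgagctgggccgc
Syvn1: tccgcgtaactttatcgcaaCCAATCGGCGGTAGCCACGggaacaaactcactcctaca

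The shorter ERSE-II (ATTGG and CCACG with 1 free base between them, either strand) was found in Herpud1 and Dnajb11, and in 0.0444% of genes with a promoter. In Herpud1 it lies at chr8:94386357-94386407 (+), again in capitals with 20 bases on each side.
Herpud1: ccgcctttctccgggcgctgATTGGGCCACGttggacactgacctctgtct
The letters TGACGTGG, an element bound by Xbp1 and Atf6 and known as the UPRE, were in 0 of the 30 members' windows and in 0.714% of genes.

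The enzymes that form disulfide bonds rose with the chaperones. Pdia4, a disulfide isomerase, had 617 and 827 CPM in Ins cells, against 168 and 175 CPM in Chgb cells (log2 fold change 2.09 ± 0.20, adjusted p = 2.92e-13). Pdia6, an isomerase that works with Hspa5 and carries the element shown above, had 1022 and 1206 CPM in Ins cells, against 344 and 350.0 CPM in Chgb cells (log2 fold change 1.69 ± 0.17, adjusted p = 2.95e-13). P4hb, the classical protein disulfide isomerase, had 934 and 949 CPM in Ins cells, against 414 and 469 CPM in Chgb cells (log2 fold change 1.09 ± 0.16, adjusted p = 7.80e-07). Each was higher in both Ins sums than in both Chgb sums. Pdia3, the isomerase that calreticulin and calnexin recruit, followed with a log2 fold change of 1.29 ± 0.23 (adjusted p = 5.15e-05). The exception was Ppib, the proline isomerase cyclophilin B, with 141 and 182 CPM in Ins cells, against 86.8 and 97.9 CPM in Chgb cells and an adjusted p of 0.137.

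Of the 7 translocon genes 6 rose, with log2 fold changes between 0.83 and 1.12. Sec61b, the beta subunit of the channel, had 1251 and 1301 CPM in Ins cells, against 596 and 702 CPM in Chgb cells (log2 fold change 0.97 ± 0.15, adjusted p = 1.98e-06). Sec61g, its gamma subunit, showed a log2 fold change of 1.12 ± 0.21 (adjusted p = 0.00011) and Sec61a1, which forms the pore, one of 0.83 ± 0.22 (adjusted p = 0.0157). Of the translocon-associated complex, Ssr2, Ssr3 and Ssr4 rose, with log2 fold changes of 0.95, 1.00 and 0.87. Ssr1 had 294 and 421 CPM in Ins cells, against 214 and 225 CPM in Chgb cells and did not pass (adjusted p = 0.0556). Among the signal peptidase genes, Spcs2 stood at 1193 and 1072 CPM in Ins cells, against 561 and 625 CPM in Chgb cells (log2 fold change 0.93 ± 0.15, adjusted p = 3.10e-06). Spcs1 followed with 1.08 ± 0.24 (adjusted p = 0.00161) and Sec11c, a catalytic subunit counted with only 48 UMIs over both Ins sums, with 1.92 ± 0.47 (adjusted p = 0.00637).

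Degradation genes and sensors behaved less uniformly. Syvn1, the ubiquitin ligase Hrd1, was called higher with 106 and 221 CPM in Ins cells, against 83.9 and 39.6 CPM in Chgb cells, but its log2 fold was 0.33 in library 1 and 2.45 in library 2. Its partner Sel1l had 223 and 275 CPM in Ins cells, against 107 and 192 CPM in Chgb cells (adjusted p = 0.101). Herpud1, a membrane protein of the same complex, had 88.1 and 164 CPM in Ins cells, against 66.5 and 58.3 CPM in Chgb cells (adjusted p = 0.0846). Derl1, a candidate retrotranslocation protein, had 76.4 and 152 CPM in Ins cells, against 43.4 and 70.8 CPM in Chgb cells (adjusted p = 0.158). All 3 were higher in both Ins sums without passing. Edem1, which delivers misfolded glycoproteins to degradation, had 41.1 and 86.6 CPM in Ins cells, against 43.4 and 33.3 CPM in Chgb cells (adjusted p = 0.523), and its groups overlapped.

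Xbp1 was the 1 of the 6 sensors and factors that passed. It stood at 358 and 206 CPM in Ins cells, against 130.2 and 110.4 CPM in Chgb cells (log2 fold change 1.18 ± 0.29, adjusted p = 0.00625). The counts are UMIs per gene and do not separate the spliced form of Xbp1 from the unspliced one. Atf4, the factor downstream of Eif2ak3, had 76.4 and 83.6 CPM in Ins cells, against 89.7 and 117 CPM in Chgb cells (adjusted p = 0.757), which puts both Ins sums below both Chgb sums. Ddit3, also called Chop, a factor of prolonged stress, had 17.6 and 17.9 CPM in Ins cells, against 17.4 and 31.3 CPM in Chgb cells (adjusted p = 0.886), from 9 UMIs in Ins cells and 21 in Chgb cells. Atf6 had 58.8 and 80.6 CPM in Ins cells, against 69.4 and 72.9 CPM in Chgb cells (adjusted p = 0.999). Ern1 had 106 and 68.7 CPM in Ins cells, against 49.2 and 113 CPM in Chgb cells (adjusted p = 0.999). Both had overlapping groups. Eif2ak3 had 35.3 and 44.8 CPM in Ins cells, against 31.8 and 8.33 CPM in Chgb cells (adjusted p = 0.376), from 21 UMIs in Ins cells and 15 in Chgb cells.

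A further list of 110 genes held 20 of the stress response, not all of which encode ER proteins. All 110 are called further ER genes for short. Among the 100 that were tested, 22 rose in Ins cells and 1 fell, beside 1.99% and 0.845% of all genes. The oligosaccharyltransferase, which attaches sugars to chains as they enter the ER, contributed 8 of its 12 genes. Ero1lb, an oxidase that recharges disulfide isomerases, had 323 and 481 CPM in Ins cells, against 86.8 and 100.01 CPM in Chgb cells (log2 fold change 2.11 ± 0.28, adjusted p = 1.50e-08). Rpn2, Magt1, Dad1 and Ddost, all genes of the oligosaccharyltransferase, had log2 fold changes of 1.48, 1.53, 1.42 and 1.10, and Tram1, a translocon-associated membrane protein, one of 1.17. The 100 genes had a median log2 fold change of 0.34, against 1.09 for the 37 members. DESeq2 called 16 of the 26 members and lost Canx, Creld2, Dnajc3, Ssr3, Ssr4, Sec61a1, Spcs1, Sec11c, Syvn1 and Xbp1, with adjusted p-values from 0.0518 (Spcs1) to 0.340 (Syvn1). The count was also 16 when only cells of 2000 to 5000 UMIs were used (an alternative chosen after seeing the data), and 22 in cells without any acinar UMI, also chosen after seeing the data.

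**Figure D3:**
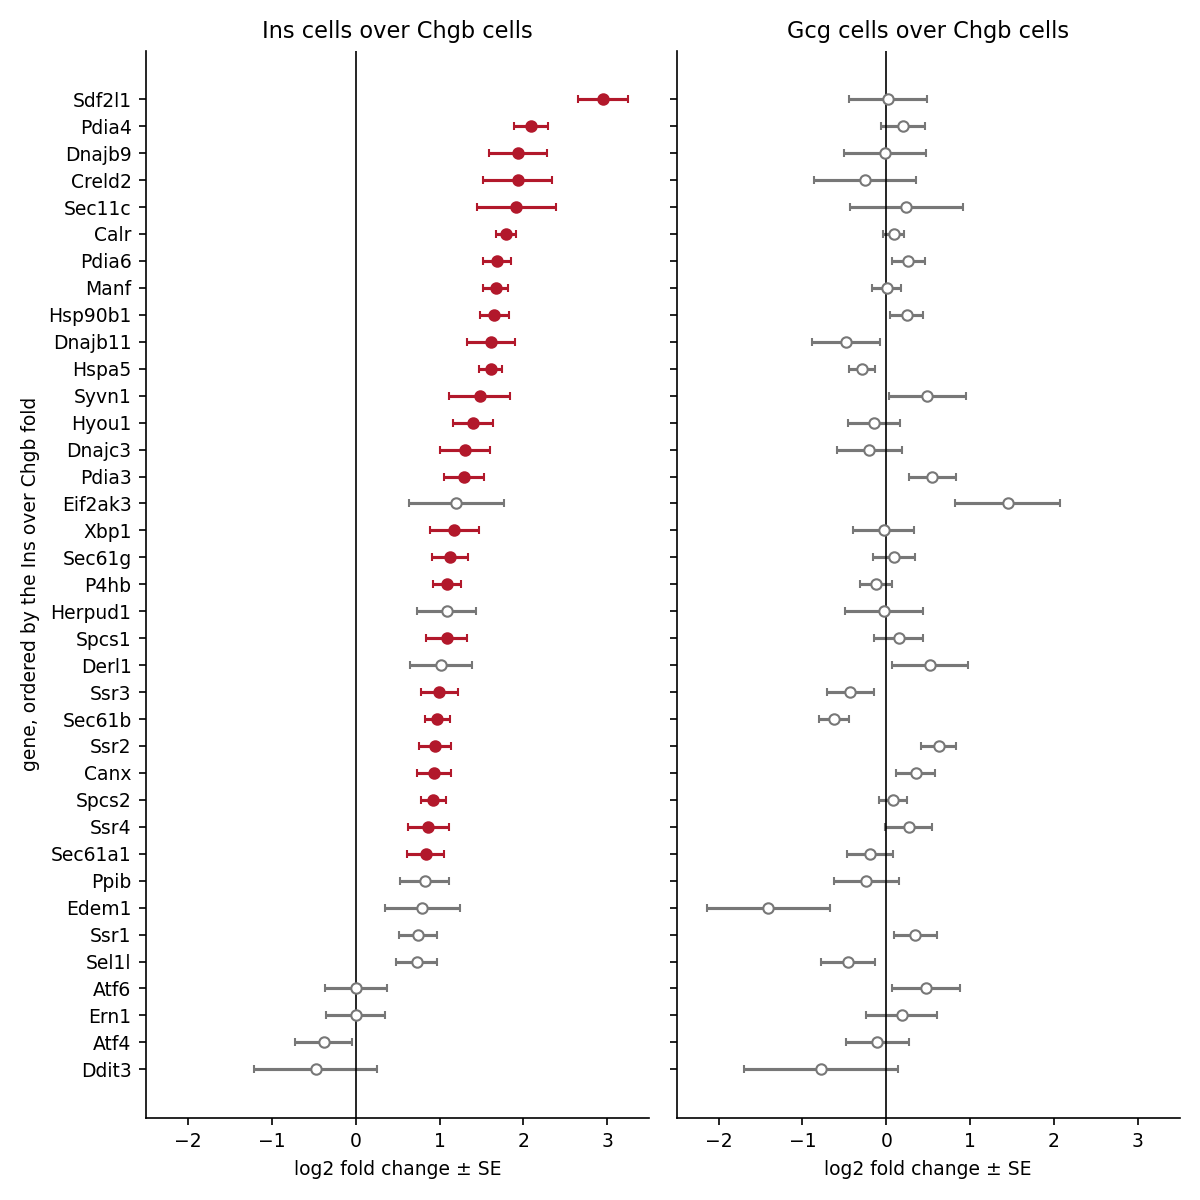
Log2 fold change (± SE) of the 37 genes in Ins cells over Chgb cells (left) and in Gcg cells over Chgb cells (right), with genes in the same order and filled red points where the adjusted p is under 0.05. In the left panel 26 points are filled and in the right panel 0. Both comparisons use the same Chgb sums.

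Gcg cells were set against the same Chgb cells. In edgeR 0 of the 37 members passed in either direction, whereas 1.3% of genes did (0.629% as lower), and DESeq2 also called 0. At an unadjusted p under 0.05 there were 3 members (8.11%), near the 9.87% of all genes. The median log2 fold change was 0.02 over the members and -0.01 over all genes. Sec61b came nearest, with 417 and 427 CPM in Gcg cells, against 596 and 702 CPM in Chgb cells (log2 fold change -0.62 ± 0.18, adjusted p = 0.0611). Without a filter on low counts 1 of the 37 was called. Hspa5 had 553 and 904 CPM in Gcg cells, against 1009 and 775 CPM in Chgb cells (adjusted p = 0.535). Calr had 935 and 959.8 CPM in Gcg cells, against 949 and 838 CPM in Chgb cells (adjusted p = 0.905). The groups overlapped in both.

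The sensors and factors did not pass in Gcg cells either. Xbp1 had 68 and 155 CPM in Gcg cells, against 130.2 and 110.4 CPM in Chgb cells. Atf4 had 102 and 92.9 CPM in Gcg cells, against 89.7 and 117 CPM in Chgb cells. Atf6 had 76.5 and 118 CPM in Gcg cells, against 69.4 and 72.9 CPM in Chgb cells. Ern1 had 42.5 and 136 CPM in Gcg cells, against 49.2 and 113 CPM in Chgb cells. Of these 4 only Atf6 had groups that did not overlap. Eif2ak3 had 68 and 37.2 CPM in Gcg cells, against 31.8 and 8.33 CPM in Chgb cells. Ddit3 gave 4 UMIs in library 1 and 0 UMIs in library 2 of Gcg cells, where a count of 0 allows up to 18.2 CPM. Adjusted p-values of the 6 were 0.371 or higher. Of the further ER genes 1 rose and 2 fell, beside 0.676% and 0.629% of all genes. Erp29, a thioredoxin-fold chaperone, had 451 and 458 CPM in Gcg cells, against 263 and 269 CPM in Chgb cells (adjusted p = 0.0462). Wfs1, the ER membrane protein wolframin, had 34 and 18.6 CPM in Gcg cells, against 83.9 and 108 CPM in Chgb cells (adjusted p = 0.0407). The stress factor Atf3 gave 0 UMIs in both Gcg sums (up to 26.2 and 18.2 CPM allowed), against 57.8 and 54.2 CPM in Chgb cells (adjusted p = 0.00196). It was not particular to Gcg cells. Atf3 was also the 1 further ER gene that fell in Ins cells over the same Chgb cells, with 0 and 20.9 CPM in Ins cells (adjusted p = 0.0206).

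The 2 hormone groups were then compared directly. Of the 37 members 21 rose in Ins cells over Gcg cells and 0 fell, whereas 3.15% of genes were called and 1.93% were called higher. Members had a median log2 fold change of 1.18 and all genes one of 0.02. Chaperones accounted for 10 of the 21, with Canx as the exception at 476 and 624 CPM in Ins cells, against 476 and 279 CPM in Gcg cells (adjusted p = 0.202).

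The members called showed Ins cells higher in each library. Hspa5 had 2479 and 3006 CPM in Ins cells, against 553 and 904 CPM in Gcg cells (log2 fold change 1.90 ± 0.15, adjusted p = 1.98e-17). Calr had a log2 fold change of 1.70 ± 0.13 (adjusted p = 6.16e-19), Manf one of 1.67 ± 0.17 (adjusted p = 5.11e-13) and Sdf2l1 one of 2.93 ± 0.37 (adjusted p = 3.39e-09). Sec61b had 1251 and 1301 CPM in Ins cells, against 417 and 427 CPM in Gcg cells (log2 fold change 1.60 ± 0.18, adjusted p = 3.86e-11). Pdia4, Pdia6 and P4hb had log2 fold changes of 1.89, 1.42 and 1.22, and Dnajb11, Hyou1, Hsp90b1 and Ssr3 of 2.10, 1.54, 1.41 and 1.43, all with adjusted p below the threshold. Dnajb11, Creld2, Dnajc3 and Xbp1 differed more in library 1, where the 29 Gcg cells held few UMIs of each. Xbp1 had 358 and 206 CPM in Ins cells, against 68 and 155 CPM in Gcg cells (log2 fold change 1.21 ± 0.35, adjusted p = 0.0301), and its log2 fold was 2.38 in library 1 and 0.41 in library 2. Sel1l, which did not pass against Chgb cells, passed here with 223 and 275 CPM in Ins cells, against 102 and 118 CPM in Gcg cells (log2 fold change 1.18 ± 0.31, adjusted p = 0.0153).

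The other 5 sensors and factors had adjusted p-values of 0.724 or higher, with Atf6 at 58.8 and 80.6 CPM in Ins cells, against 76.5 and 118 CPM in Gcg cells. Atf4 had 76.4 and 83.6 CPM in Ins cells, against 102 and 92.9 CPM in Gcg cells. Ern1 had 106 and 68.7 CPM in Ins cells, against 42.5 and 136 CPM in Gcg cells. Eif2ak3 had 35.3 and 44.8 CPM in Ins cells, against 68 and 37.2 CPM in Gcg cells. Of 100 further ER genes 19 rose and 0 fell, beside 1.93% and 1.22% of all genes. Those that rose held 7 of the 12 oligosaccharyltransferase genes. Ero1lb had 323 and 481 CPM in Ins cells, against 51 and 43.3 CPM in Gcg cells (log2 fold change 3.12 ± 0.39, adjusted p = 1.87e-09). Wfs1 had 229 and 221 CPM in Ins cells, against 34 and 18.6 CPM in Gcg cells (log2 fold change 3.14 ± 0.49, adjusted p = 1.44e-06). Serp1, a small protein that stabilises membrane proteins at the translocon, had a log2 fold change of 1.80, Tram1 one of 1.43, and Magt1 and Rpn1 of 1.57 and 1.14. DESeq2 called 16 of the 21 members and lost Creld2, Sel1l, Xbp1, Sec61a1 and Spcs1, with adjusted p-values from 0.0595 (Creld2) to 0.180 (Spcs1). With cells of 2000 to 5000 UMIs only, 13 members rose.

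Within the Ins cells the ER genes were looked at against the level of insulin. Ins1 and Ins2 took between 0.541% and 10.002% of a cell's UMIs in library 1 (median 2.37%) and between 0.681% and 21.7% in library 2 (median 3.17%). The share of the 37 genes, taken over UMIs other than Ins1 and Ins2, ran from 1.08% to 3.26% (median 1.90%) in library 1 and from 0.781% to 4.53% (median 2.20%) in library 2. The lowest of these cells lay above the median Chgb cell of its library, which had 0.757% and 0.714% of all its UMIs, insulin included, in the 37 genes. The upper quartile of Chgb cells, also over all UMIs, was 1.06% and 1.13%. In library 2 the lowest Ins cell lay below that quartile. Spearman's rho between the share and the insulin level was 0.32 over 39 cells in library 1 and 0.54 over 99 cells in library 2, and Pearson's r was 0.43 and 0.50. The points of a library share its depth and its free RNA, and the values describe cells, not replicates. The share itself had a rho of 0.08 and -0.04 with the depth of the cell, while insulin level had one of 0.35 with depth in library 1 and 0.00 in library 2.

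**Figure D4:**
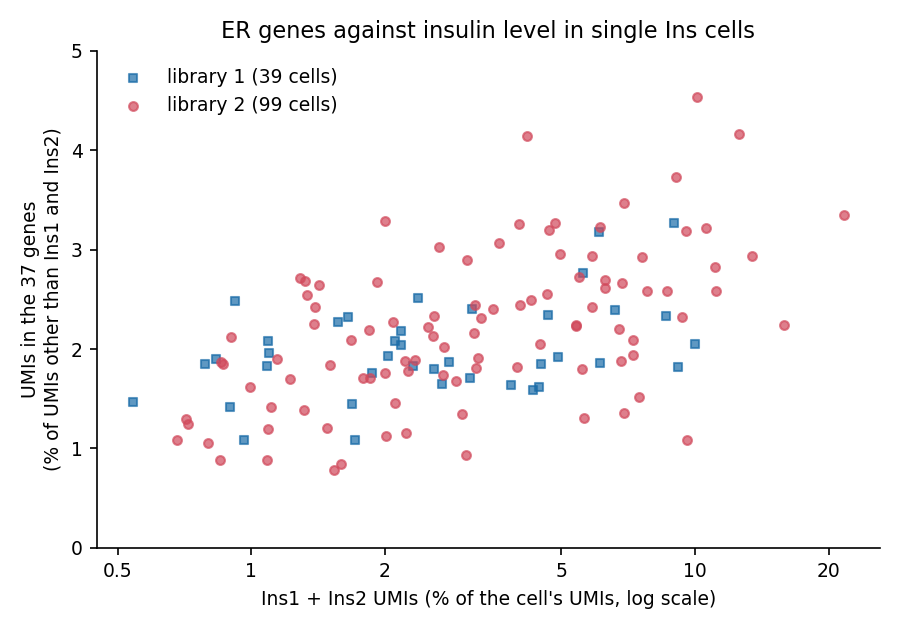
Share of the 37 genes among UMIs other than Ins1 and Ins2 (%, linear axis) against the insulin share of the cell (%, log axis), 1 point per Ins cell. Points rise from left to right in both libraries, with a rho of 0.32 in library 1 (squares) and 0.54 in library 2 (circles), and scatter widely at every insulin level.

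With the cells of each library in 3 equal bins of insulin level, the share was 1.79%, 1.96% and 2.14% in library 1 and 1.66%, 2.21% and 2.70% in library 2, low to high. The step was larger in library 2. When each library was split at its median, Ins-high cells had 2.08% and 2.67%, against 1.84% and 1.74% in Ins-low cells. In library 1 the Ins-high cells were also deeper, with a median of 5849 UMIs against 3552 in Ins-low cells, and in library 2 the medians were 3587 and 3506. The part of depth in the library 1 difference was not tested.

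In the joint fit of Ins-high over Ins-low sums, edgeR called 0 of the 36 members tested, DESeq2 called 0, and 0.248% of 8886 genes were called by edgeR, 0.0225% as lower. At an unadjusted p under 0.05, 17 members were higher and 0 lower, beside 3.86% and 3.3% of all genes. In 25 of the 36 the level was higher in both libraries, which held for 26.7% of all genes. The median log2 fold change was 0.58 over the members and -0.01 over all genes, and it was 0.32 in library 1 alone. Manf had the lowest adjusted p, with 1621 and 2127 CPM in Ins-high cells, against 1286 and 1194 CPM in Ins-low cells (log2 fold change 0.61 ± 0.17, adjusted p = 0.166), and its 2 Ins-high sums stood above both Ins-low sums. Calr had 3263 and 3656 CPM in Ins-high cells, against 2765 and 2308 CPM in Ins-low cells. Hspa5 had 2529.6 and 3626 CPM in Ins-high cells, against 2212 and 2274 CPM in Ins-low cells. Creld2 had 206 and 199 CPM in Ins-high cells, against 64.3 and 85.3 CPM in Ins-low cells. None of the 3 overlapped (adjusted p = 0.29, 0.475 and 0.444).

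Not all members leaned this way. Canx was the 1 member lower in both libraries, which held for 24.2% of all genes, and had 392 and 568 CPM in Ins-high cells, against 540.1 and 642 CPM in Ins-low cells (adjusted p = 0.899). Xbp1 had 392 and 193 CPM in Ins-high cells, against 283 and 210.3 CPM in Ins-low cells (adjusted p = 0.964). Atf4 had 72.3 and 84.6 CPM in Ins-high cells, against 64.3 and 73.9 CPM in Ins-low cells (adjusted p = 0.981). Ern1 had 114 and 48.3 CPM in Ins-high cells, against 77.2 and 85.3 CPM in Ins-low cells (adjusted p = 0.986). Each of these overlapped between Ins-high and Ins-low cells. Atf6 had 92.9 and 96.7 CPM in Ins-high cells, against 12.9 and 62.5 CPM in Ins-low cells. Eif2ak3 had 51.6 and 72.5 CPM in Ins-high cells, against 12.9 and 17.1 CPM in Ins-low cells. Both were without overlap, and neither passed (adjusted p = 0.733 and 0.587). Their counts were low, with 25 UMIs of Atf6 in Ins-high and 12 in Ins-low cells over both libraries. Eif2ak3 had 17 and 4 UMIs. Ddit3 was too low to be tested. Only 1 of the 5 degradation genes, Sel1l, was higher in both libraries, with 289 and 326 CPM in Ins-high cells, against 129 and 216 CPM in Ins-low cells (adjusted p = 0.583).

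Single chaperones also varied with the rest of the list from cell to cell, in Ins cells mainly in library 2. In library 2, the share of Hspa5 in an Ins cell had a Spearman's rho of 0.60 with the summed share of the other 36 genes, Manf one of 0.54 and Calr one of 0.50 (99 cells), while Spcs2 and Sec61b had 0.19 and 0.18. In library 1 the values were 0.36 for Hspa5, 0.13 for Calr, 0.06 for Spcs2, -0.10 for Manf and -0.16 for Sec61b (39 cells). The order of Hspa5 ahead of Spcs2 and Sec61b held in both libraries, and that of Manf did not. In Chgb cells, Calr had 0.45 and 0.42, Hspa5 0.28 and 0.39, and Manf 0.28 and 0.43 (95 and 150 cells). Spcs2 had 0.12 and 0.15 there, and Sec61b 0.16 and 0.21. These genes were chosen as the 5 with the most UMIs, and a cell held medians of 3 to 11 UMIs of each in Ins cells and 1 or 2 in Chgb cells, so weak values carry counting noise.

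Chgb cells were next compared with Neurog3 cells. Of the 37 members 7 rose and 2 fell, beside 11.6% of genes called, 4.92% higher and 6.72% lower. Members had a median log2 fold change of 0.35, all genes one of 0.01. Manf led with 535 and 488 CPM in Chgb cells, against 185 and 217 CPM in Neurog3 cells (log2 fold change 1.34 ± 0.17, adjusted p = 5.40e-10). Sec61b had 596 and 702 CPM in Chgb cells, against 264 and 284 CPM in Neurog3 cells (log2 fold change 1.24 ± 0.16, adjusted p = 3.34e-09). Hspa5 had 1009 and 775 CPM in Chgb cells, against 499.9 and 528 CPM in Neurog3 cells (log2 fold change 0.80 ± 0.14, adjusted p = 1.05e-05). These 3 were above the Neurog3 level already in Chgb cells, and higher again in Ins cells. Ssr2 had a log2 fold change of 0.85 ± 0.20, Canx of 0.78 ± 0.22, Sec61g of 0.67 ± 0.23 and P4hb of 0.56 ± 0.17 (adjusted p-values 0.00157, 0.00786, 0.0384 and 0.0175), of which Canx, Sec61g and P4hb were not called by DESeq2 or without the library term.

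Calr, the member with the lowest adjusted p in Ins over Chgb cells, did not pass at this step, with 949 and 838 CPM in Chgb cells, against 982 and 1088 CPM in Neurog3 cells (adjusted p = 0.282). Nor did Sdf2l1, with 49.2 and 62.5 CPM in Chgb cells, against 53.8 and 23 CPM in Neurog3 cells (adjusted p = 0.349), or Pdia4. Pdia4 had 168 and 175 CPM in Chgb cells, against 220.5 and 192 CPM in Neurog3 cells (adjusted p = 0.537). Of the sensors and factors none passed, and the lowest adjusted p was 0.374, for Eif2ak3 at 31.8 and 8.33 CPM in Chgb cells, against 35.9 and 30.7 CPM in Neurog3 cells. Xbp1 had 130.2 and 110.4 CPM in Chgb cells, against 76.9 and 106 CPM in Neurog3 cells. Atf4 had 89.7 and 117 CPM in Chgb cells, against 97.4 and 149.6 CPM in Neurog3 cells. Ddit3 had 17.4 and 31.3 CPM in Chgb cells, against 20.5 and 13.4 CPM in Neurog3 cells. Atf6 had 69.4 and 72.9 CPM in Chgb cells, against 69.2 and 61.4 CPM in Neurog3 cells. Ern1 had 49.2 and 113 CPM in Chgb cells, against 74.3 and 63.3 CPM in Neurog3 cells. Of 100 further ER genes 12 rose and 2 fell, beside 4.92% and 6.72% of all genes. Ero1lb had 86.8 and 100.01 CPM in Chgb cells, against 12.8 and 13.4 CPM in Neurog3 cells (log2 fold change 2.81 ± 0.43, adjusted p = 2.27e-07), and Ostc and Rpn1 of the oligosaccharyltransferase, Spcs3 of signal peptidase and Edem2 of degradation had log2 fold changes of 1.38, 1.10, 1.87 and 2.08. Qsox1, a sulfhydryl oxidase, was lower, with 83.9 and 75 CPM in Chgb cells, against 154 and 292 CPM in Neurog3 cells (adjusted p = 4.13e-05).

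Sel1l and Ppib went the other way and, among the 5 fitted groups, were highest in Neurog3 cells. Sel1l, the adaptor of the Hrd1 ligase, had 107 and 192 CPM in Chgb cells, against 387 and 409 CPM in Neurog3 cells (log2 fold change -1.42 ± 0.22, adjusted p = 5.20e-07). Against Spp1 cells, the same Neurog3 sums of 387 and 409 CPM stood beside 81.9 and 126 CPM in Spp1 cells (log2 fold change 1.94 ± 0.23, adjusted p = 1.31e-10). No Neurog3 sum overlapped with either group. Ppib had 86.8 and 97.9 CPM in Chgb cells, against 218 and 309 CPM in Neurog3 cells (log2 fold change -1.51 ± 0.26, adjusted p = 4.05e-06). It had 185 and 134 CPM in Spp1 cells (Neurog3 over Spp1, log2 fold change 0.74 ± 0.23, adjusted p = 0.0331), a call that was lost with DESeq2 and 4 other settings. Both comparisons use the same Neurog3 sums, and the gene that overlaps Ppib on the opposite strand is Snx22.

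**Figure D5:**
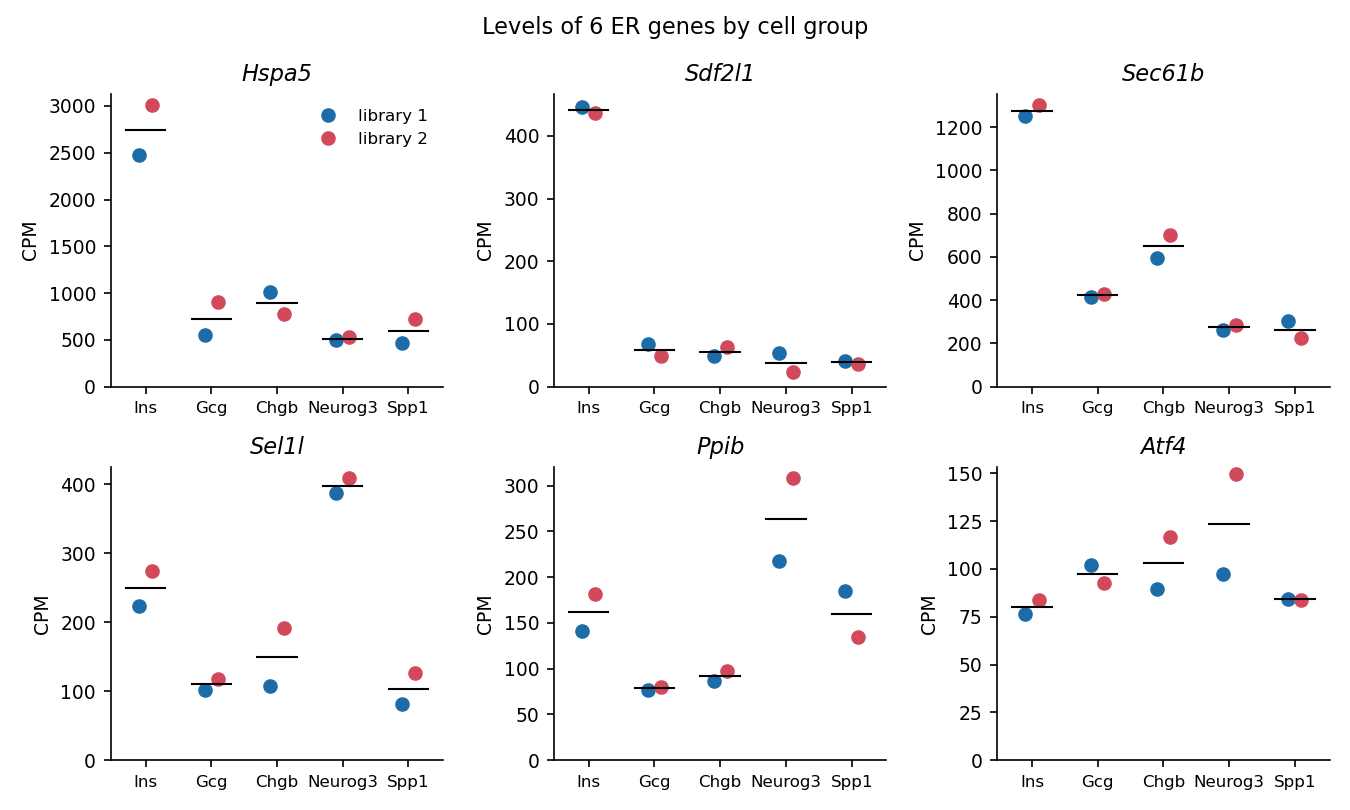
Level (CPM, linear axes from 0) of 6 genes in the 5 fitted cell groups, 1 point per library with a line at the mean of the 2. Hspa5, Sdf2l1 and Sec61b are highest in Ins cells, Sel1l and Ppib in Neurog3 cells, and Atf4, not called in any comparison among these groups, lies between 76.4 and 149.6 CPM.

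Neurog3 cells over Spp1 cells gave 4 calls in all, 3 higher and 1 lower, beside 8.18% of genes called, 4.6% higher and 3.58% lower. The members' share of calls, 10.8%, was thus near that of all genes. The median log2 fold change was 0.08 over the members and -0.02 over all genes. Besides Sel1l and Ppib, Calr was higher, with 982 and 1088 CPM in Neurog3 cells, against 645 and 762 CPM in Spp1 cells (log2 fold change 0.55 ± 0.12, adjusted p = 0.000431). Canx was lower, with 162 and 176 CPM in Neurog3 cells, against 207 and 334 CPM in Spp1 cells (log2 fold change -0.68 ± 0.21, adjusted p = 0.0293). DESeq2 called 1 of the 37, Sel1l.

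Hspa5 had 499.9 and 528 CPM in Neurog3 cells, against 465 and 719.8 CPM in Spp1 cells (adjusted p = 0.526), and its groups overlapped. The 6 sensors and factors had adjusted p-values of 0.186 or higher, with Ern1 at 74.3 and 63.3 CPM in Neurog3 cells, against 36.1 and 38.6 CPM in Spp1 cells. Atf4 had 97.4 and 149.6 CPM in Neurog3 cells, against 84.3 and 83.9 CPM in Spp1 cells. Xbp1 had 76.9 and 106 CPM in Neurog3 cells, against 60.2 and 68.8 CPM in Spp1 cells. Atf6 had 69.2 and 61.4 CPM in Neurog3 cells, against 48.2 and 55.4 CPM in Spp1 cells. Eif2ak3 had 35.9 and 30.7 CPM in Neurog3 cells, against 38.5 and 31.9 CPM in Spp1 cells. Ddit3 had 20.5 and 13.4 CPM in Neurog3 cells, against 9.63 and 10.1 CPM in Spp1 cells. Of 100 further ER genes 3 rose and 3 fell, beside 4.6% and 3.58% of all genes. Selm, a selenoprotein of the ER, had 187 and 152 CPM in Neurog3 cells, against 33.7 and 31.9 CPM in Spp1 cells (log2 fold change 2.36 ± 0.34, adjusted p = 8.33e-08), and it was lower again in Chgb cells, at 57.8 and 56.3 CPM. Qsox1 and Srp14, a subunit of the signal recognition particle, had log2 fold changes of 1.00 and 0.80. Stt3b, a catalytic subunit of the oligosaccharyltransferase, fell with 97.4 and 102 CPM in Neurog3 cells, against 236 and 245 CPM in Spp1 cells (adjusted p = 0.000343), and the stress factors Atf3 and Cebpb fell with log2 fold changes of -1.74 and -1.43.

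Cpa1 cells, the acinar and tip cells, were set against Spp1 cells. Library 1 held only 9 of them, below the minimum of 10 cells set for a group, so the comparison was made with a minimum of 5 cells, a choice made after the cell counts were seen. Of the 37 members 22 rose and 0 fell, beside 7.52% of 11387 genes called, 3.94% higher and 3.57% lower. The median log2 fold change was 1.04 over the members and -0.09 over all genes, and without library 2 the members' median was 0.68, without library 1 it was 1.37. Spp1 levels here are on the scale of the 7-group fit and so differ slightly from those above.

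The genes that led were partly other ones than in Ins cells. Sdf2l1 had 379 and 430.0 CPM in Cpa1 cells, against 42.2 and 37.8 CPM in Spp1 cells (log2 fold change 3.37 ± 0.37, adjusted p = 1.69e-17). Xbp1, known as a factor that acinar cells need, had 478 and 436 CPM in Cpa1 cells, against 62.1 and 70.5 CPM in Spp1 cells (log2 fold change 2.74 ± 0.34, adjusted p = 1.28e-13). Ppib had 511 and 737 CPM in Cpa1 cells, against 191 and 138 CPM in Spp1 cells (log2 fold change 1.96 ± 0.30, adjusted p = 6.55e-09). Edem1, which did not pass in Ins cells, had 214 and 289 CPM in Cpa1 cells, against 42.2 and 67 CPM in Spp1 cells (log2 fold change 2.18 ± 0.40, adjusted p = 3.34e-06). Whether these folds differ from those of Ins cells was not tested. All 7 translocon genes rose, with log2 fold changes between 1.04 for Ssr2 and 1.64 for Sec61g. Hspa5 had 1089 and 1356 CPM in Cpa1 cells, against 479.6 and 737 CPM in Spp1 cells (log2 fold change 1.02 ± 0.21, adjusted p = 8.47e-05).

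Some folds rested mostly on library 2. Manf had 297 and 1037 CPM in Cpa1 cells, against 201 and 196 CPM in Spp1 cells (log2 fold 0.56 in library 1 and 2.40 in library 2). Ssr1 had 297 and 830.0 CPM in Cpa1 cells, against 268 and 184 CPM in Spp1 cells. P4hb had 346 and 1004 CPM in Cpa1 cells, against 283 and 354 CPM in Spp1 cells, with overlapping groups. Herpud1 had 66 and 189 CPM in Cpa1 cells, against 37.3 and 30.9 CPM in Spp1 cells (log2 fold change 2.11 ± 0.45, adjusted p = 0.00012). Pdia4 was called higher although its log2 fold was -0.12 in library 1 and 1.38 in library 2. DESeq2 called 20 of the 22 members and lost Pdia4 and Dnajb11 (adjusted p = 0.0641 and 0.0578). Apart from Xbp1, no sensor or factor passed. Atf4 had 132 and 153 CPM in Cpa1 cells, against 87 and 85.9 CPM in Spp1 cells (adjusted p = 0.351). Ern1 had 33 and 75.2 CPM in Cpa1 cells, against 37.3 and 39.5 CPM in Spp1 cells. Atf6 had 49.5 and 84.2 CPM in Cpa1 cells, against 49.7 and 56.7 CPM in Spp1 cells. Ddit3 had 16.5 and 18 CPM in Cpa1 cells, against 9.94 and 10.3 CPM in Spp1 cells. Eif2ak3 gave 0 UMIs in library 1 of Cpa1 cells, which allows up to 51.4 CPM, and had 0 and 36.1 CPM in Cpa1 cells, against 39.8 and 32.7 CPM in Spp1 cells.

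Of 103 further ER genes 18 rose in Cpa1 cells and 4 fell, beside 3.94% and 3.57% of all genes. Nupr1, a stress-induced chromatin protein, had 231 and 451 CPM in Cpa1 cells, against 7.45 and 12 CPM in Spp1 cells (log2 fold change 5.09 ± 0.51, adjusted p = 1.33e-20), and Asns, asparagine synthetase and a known Atf4 target, had 165 and 183 CPM in Cpa1 cells, against 7.45 and 10.3 CPM in Spp1 cells (log2 fold change 4.24 ± 0.57, adjusted p = 1.84e-11). Edem2, Serp1 and Fkbp11, an ER proline isomerase, had log2 fold changes of 2.59, 1.70 and 4.11. Atf3 was lower, with 0 and 24.1 CPM in Cpa1 cells, against 69.6 and 205 CPM in Spp1 cells (adjusted p = 8.78e-06).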

How the data were processed

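The 2 libraries each came as a deposited table of raw UMI counts (gene symbols by cells). Per the submitters' processing notes the genome build was GRCm38. The sources used here give neither aligner nor annotation, nor whether strand was used. The members and lists were chosen with earlier results of these data known. The further ER genes are named by a rule of at most 6 per comparison, with Atf3 in Ins over Chgb cells added to it. Libraries 1 and 2 held 535 and 1100 barcodes, 1910588 and 3425983 UMIs, and medians of 3244 and 2828.5 UMIs per barcode. Barcodes under 1000 UMIs or 500 genes, or over 20% mitochondrial, were dropped, which left 528 and 1081, and Scrublet in scanpy 1.11.5 removed 13 (2.46%) and 11 (1.02%) as doublets. Cells were grouped by raw marker UMIs and summed per group and library, with at least 10 cells. Sums were tested with edgeR 4.0.16 (R 4.3.3): TMM scaling, the default expression filter, a library term and the quasi-likelihood test, over 10 sums with 4 residual degrees of freedom. The library term pairs groups because their cells come from the same library. Benjamini-Hochberg adjustment ran over all tested genes less the 8 grouping genes, at 0.05, and the scripts were tested on simulated data. Levels are CPM on TMM-scaled sizes, and marker lists are plain CPM. SE is the log2 fold change divided by the square root of F. Folds within 1 library use a pseudocount of 1 CPM. DESeq2 1.42.0 was an alternative, beside other scaling, filters, marker thresholds and cell choices. Other steps ran in pandas 2.3.3, scipy 1.17.1, matplotlib 3.10.9 and numpy 2.4.6 under Python 3.11.15. Exon overlaps come from the GENCODE annotation of GRCm38; where strand use is not given, reads of a gene and of an overlapping one cannot be told apart.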

Additional observations from a re-analysis of the deposited data

How the results depend on the processing

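The up to 12 called members with the lowest adjusted p in each comparison gave 49 results, which kept their direction under all 417 alternatives computed, and 391 also kept their side of the threshold. Within these 49, the 26 losses concern Calr, Canx and Ppib in Neurog3 over Spp1 cells, and Canx, P4hb and Sec61g in Chgb over Neurog3 cells. Over all called members, DESeq2 called 1 in place of 4 in Neurog3 over Spp1 cells, 6 in place of 9 in Chgb over Neurog3, 16 in place of 26 in Ins over Chgb, 16 in place of 21 in Ins over Gcg and 20 in place of 22 in Cpa1 over Spp1 cells. Without the replicate block, that is without the library term, the counts were 2 in Neurog3 over Spp1 cells, 6 in place of 9 in Chgb over Neurog3 cells, 24 in Ins over Chgb cells, 17 in place of 21 in Ins over Gcg cells and 21 in place of 22 in Cpa1 over Spp1 cells. In cells without acinar UMIs, 2 were called in Neurog3 over Spp1 cells. In cells of 2000 to 5000 UMIs, 1 was called in Neurog3 over Spp1 cells, 16 in Ins over Chgb cells and 13 in Ins over Gcg cells. These last alternatives were chosen after seeing the data, and were not run for Cpa1 cells. With no filter on low counts, 1 member was called in Gcg over Chgb cells, and with marker thresholds per 3000 UMIs, 1 in Ins-high over Ins-low cells. The cause of these shifts was not tested.

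With 1 library left out, the members' median log2 fold change ran from 0.13 to 0.17 in Neurog3 over Spp1 cells, 0.28 to 0.36 in Chgb over Neurog3, 1.09 to 1.13 in Ins over Chgb, -0.02 to 0.08 in Gcg over Chgb, 1.23 to 1.24 in Ins over Gcg, 0.68 to 1.37 in Cpa1 over Spp1 and 0.32 to 0.64 in Ins-high over Ins-low cells. With mitochondrial and ribosomal protein genes left out of the total, the mean share of the 37 genes was 2.17% in Ins, 0.921% in Gcg, 0.938% in Chgb, 0.749% in Neurog3, 1.505% in Cpa1, 0.694% in Spp1 and 0.941% in Csf1r cells. Over all UMIs again, the median share of single cells, as the mean of the 2 libraries, was 0.778% in Gcg, 0.736% in Chgb and 0.604% in Neurog3 cells. A count of 0 allows up to 51.4 CPM in library 1 of Cpa1 cells, the shallowest sum in a comparison.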

Other observations

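Although no ER gene passed the edgeR test between Ins-high and Ins-low cells, 22 other genes did, 20 higher and 2 lower. Iapp and Defb9 shared the lowest adjusted p, followed by Cpne5, Kcnh2 and Pcdhb22. Defb9, Cpne5, Kcnh2 and Pcdhb22 had log2 fold changes of 2.76, 2.10, 2.64 and 2.75. The genes detailed below were not picked by rank. Iapp, the peptide stored with insulin, had 4439.7 and 7342 CPM in Ins-high cells, against 1891 and 3644 CPM in Ins-low cells (log2 fold change 1.14 ± 0.16, adjusted p = 1.40e-05). Npy, a neuropeptide, had 289 and 556 CPM in Ins-high cells, against 25.7 and 102 CPM in Ins-low cells (log2 fold change 2.57 ± 0.45, adjusted p = 0.000314). Both were higher in each library. Scg2, a secretogranin of granules, had 640.1 and 616 CPM in Ins-high cells, against 167 and 262 CPM in Ins-low cells (log2 fold change 1.52 ± 0.30, adjusted p = 0.0027), and Igf1r, a receptor of the insulin family, had 237 and 447 CPM in Ins-high cells, against 129 and 131 CPM in Ins-low cells (log2 fold change 1.47 ± 0.32, adjusted p = 0.0127). Mdk, the growth factor midkine, was lower, with 72.3 and 48.3 CPM in Ins-high cells, against 180.0 and 239 CPM in Ins-low cells (log2 fold change -1.92 ± 0.38, adjusted p = 0.0027).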
